A study of Rattus norvegicus with 15 samples.

Results

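The genes described here are 9 genes of astrocyte identity and glutamate handling, taken from the 32552 genes of the count tables by their identifiers and each kept because its chromosome in the tables was the known one (9 of 9). They are the intermediate filament genes Gfap and Vim, the calcium-binding protein S100b, the water channel Aqp4, the gap junction protein Gja1, the glutamate transporters Slc1a2 and Slc1a3, the glutamine synthetase Glul, and the lipid carrier Apoe. RNA was sequenced from 15 samples of primary rat cortical astrocytes, grown from newborn Sprague Dawley cortex, in 5 groups of 3. Control cells received vehicle (water) for 30 min. H2O2 cells received 100 µM H2O2 for 30 min, and the other 3 groups received the same H2O2 and then, 24 h later, unmodified mitochondria isolated from rat placenta, MitoCoat (such mitochondria coated with DOTAP/DOPE lipid) or MitoCoat-mRNA (mitochondria-associated RNA in the same lipid, without the organelles). RNA was collected 6 h after that treatment. The labels also speak of mitochondria-enriched fractions, so that these are RNA of whole astrocytes is taken from the study's design and not from each label. The study calls the samples of a group biological replicates, and the labels do not say from which culture each came; the p-values measure the spread between these samples. RNA carried in with placental material and RNA made by the astrocytes cannot be told apart in these counts.

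Astrocytes clear the glutamate that neurons release: the transporters encoded by Slc1a3 and Slc1a2 carry it into the cell, and the enzyme encoded by Glul joins it with ammonia to form glutamine, which is handed back to neurons. Around this cycle, Aqp4 moves water at the end-feet, and Gja1 couples astrocytes into a network through gap junctions. Gfap and Vim form the cytoskeleton that astrocytes remodel when they react to injury.

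All 9 genes carried counts in every one of the 15 libraries, whose total counts ran from 35315654 to 46778663. Per exon length, Vim was the most abundant of the 9 in control cells, at 7075 ± 366 CPM per kb of exon (SD, n = 3; CPM, counts per 1000000 after TMM scaling), and it ranked 3 among the 23954 genes with counts. Gfap followed at 1700 ± 228 (SD, n = 3), and Glul at 1020 ± 46.8. Apoe came next at 749 ± 260, and 1 of its 3 samples overlapped those of Glul. S100b (270 ± 39.6), Slc1a3 (220 ± 16.0), Gja1 (216 ± 21.7) and Aqp4 (161 ± 22.3) followed in that order. The samples of Slc1a3 and Gja1 overlapped, while those of S100b lay just above those of Slc1a3 and those of Gja1 just above those of Aqp4. These 8 genes were all within the top 2.04% of genes with counts, so the defining genes of the labelled cell type were present. Slc1a2 stood far below at 9.85 ± 1.57, with 239 to 519 counts per sample. Its exons in the count tables, in 5 separate blocks of 882 bases in all, are shorter than the coding sequence of this transporter, so its value is the count on a truncated gene model and not the full level of the transcript.

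**Figure D1:**
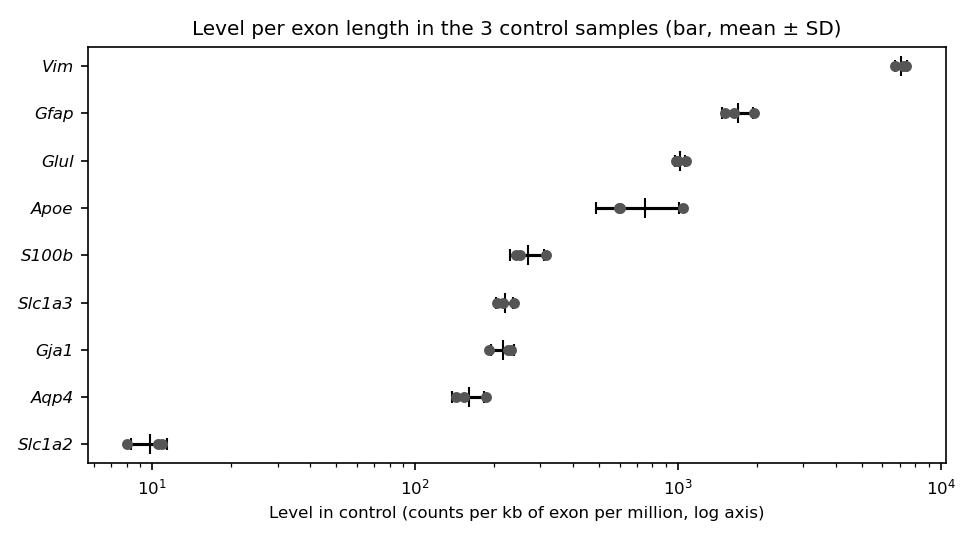
Level of each gene in the 3 control samples, in CPM per kb of exon on a log axis; points are samples and bars are mean ± SD. Vim lies highest near 7075 and Slc1a2, counted on a truncated gene model, lowest at 9.85.

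Gfap, Aqp4, Slc1a3 and Glul are the 4 genes called in H2O2 against control or in a treatment against H2O2, and the 250 bases before their annotated starts are shown so that the regulatory sequence can be read beside the values. They come from RefSeq (GRCr8, not the build of the count tables), run 5′ to 3′ on the gene's strand, and stand at chr10:88361662-88361911 (minus strand, Gfap), chr18:6798843-6799092 (minus, Aqp4), chr2:59557788-59558037 (minus, Slc1a3) and chr13:68575816-68576065 (plus, Glul). All 9 genes had an entry, and where several starts were annotated the one giving the gene length closest to that of the count tables was taken. For Slc1a2, with 2 annotated starts, that length is the one of its truncated gene model, so its start is less certain. Capitals mark matches on either strand to 6 motifs: TATAAA, the TATA box; CCAAT, the CCAAT box; TTGGCA, the NFI half-site; TTCNNNGAA, the STAT site; the AP-1 site, which is TGA and TCA around any base; and TGACNNNGC, the antioxidant response element.
Gfap: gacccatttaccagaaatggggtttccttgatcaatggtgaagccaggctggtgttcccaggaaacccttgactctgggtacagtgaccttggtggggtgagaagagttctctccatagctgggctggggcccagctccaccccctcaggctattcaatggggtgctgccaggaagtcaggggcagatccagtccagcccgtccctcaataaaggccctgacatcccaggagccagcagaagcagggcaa
Aqp4: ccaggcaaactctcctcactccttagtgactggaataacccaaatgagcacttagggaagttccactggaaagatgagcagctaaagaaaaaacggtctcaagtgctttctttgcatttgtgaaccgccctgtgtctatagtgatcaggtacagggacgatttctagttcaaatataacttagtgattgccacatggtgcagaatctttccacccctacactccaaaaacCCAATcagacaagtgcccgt
Slc1a3: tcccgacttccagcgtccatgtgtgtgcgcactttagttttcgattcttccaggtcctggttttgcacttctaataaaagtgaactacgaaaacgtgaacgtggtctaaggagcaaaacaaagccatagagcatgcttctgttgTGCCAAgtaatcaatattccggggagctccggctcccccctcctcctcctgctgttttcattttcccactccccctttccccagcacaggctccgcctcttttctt
Glul: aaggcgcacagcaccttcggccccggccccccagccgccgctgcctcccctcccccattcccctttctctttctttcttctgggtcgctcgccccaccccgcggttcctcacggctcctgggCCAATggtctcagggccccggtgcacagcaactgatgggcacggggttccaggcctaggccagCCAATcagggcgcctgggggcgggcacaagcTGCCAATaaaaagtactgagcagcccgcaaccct
The Gfap window held no match. Aqp4 had 1 CCAAT box, Slc1a3 had 1 NFI half-site, and Glul had 3 CCAAT boxes, the last of which overlapped an NFI half-site. Among all 33360 distinct promoter windows, 34% held a CCAAT box and 12.0% an NFI half-site, and over the 9 genes each was present in 4. A TATA box (12.9% of windows) was present in 1 of the 9, an AP-1 site (6.35%) in 1, an antioxidant response element (10.1%) in 1 and a STAT site (7.68%) in 0. These matches are descriptions of letters and not of bound sites.

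To ask which of the genes moved at all, each was tested for any difference among the 5 groups. Of the 9 genes, 6 passed (edgeR quasi-likelihood test, Benjamini-Hochberg adjusted p under 0.05 over all genes), against 20.8% of the 16631 genes tested. Glul had the largest statistic of the 9 (F = 43.7, edgeR adjusted p = 3.14e-06), followed by Gfap (F = 27.3), Aqp4 (F = 22.0), Slc1a3 (F = 13.4), S100b (F = 11.1) and Apoe (F = 5.05, edgeR adjusted p = 0.0421). Vim, Gja1 and Slc1a2 did not pass. With each of the 15 samples left out in turn, the calls for Glul, Gfap, Aqp4, Slc1a3 and S100b held every time. Apoe lost its call in 9 of the 15 fits, with an edgeR adjusted p of 0.351 without control replicate 1 and of 0.0506 to 0.0693 without control replicate 2, H2O2 replicate 2, mitochondria replicate 2, any MitoCoat replicate or MitoCoat-mRNA replicate 2 or 3. With all samples kept, Apoe was called with the replicate number as a block (edgeR adjusted p = 7.9e-05) and by the DESeq2 likelihood ratio test (adjusted p = 0.0343). Gja1 was called without control replicate 1 (edgeR adjusted p = 0.0230), with the replicate number as a block (0.0285) and by the DESeq2 likelihood ratio test (0.0124).

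**Figure D2:**
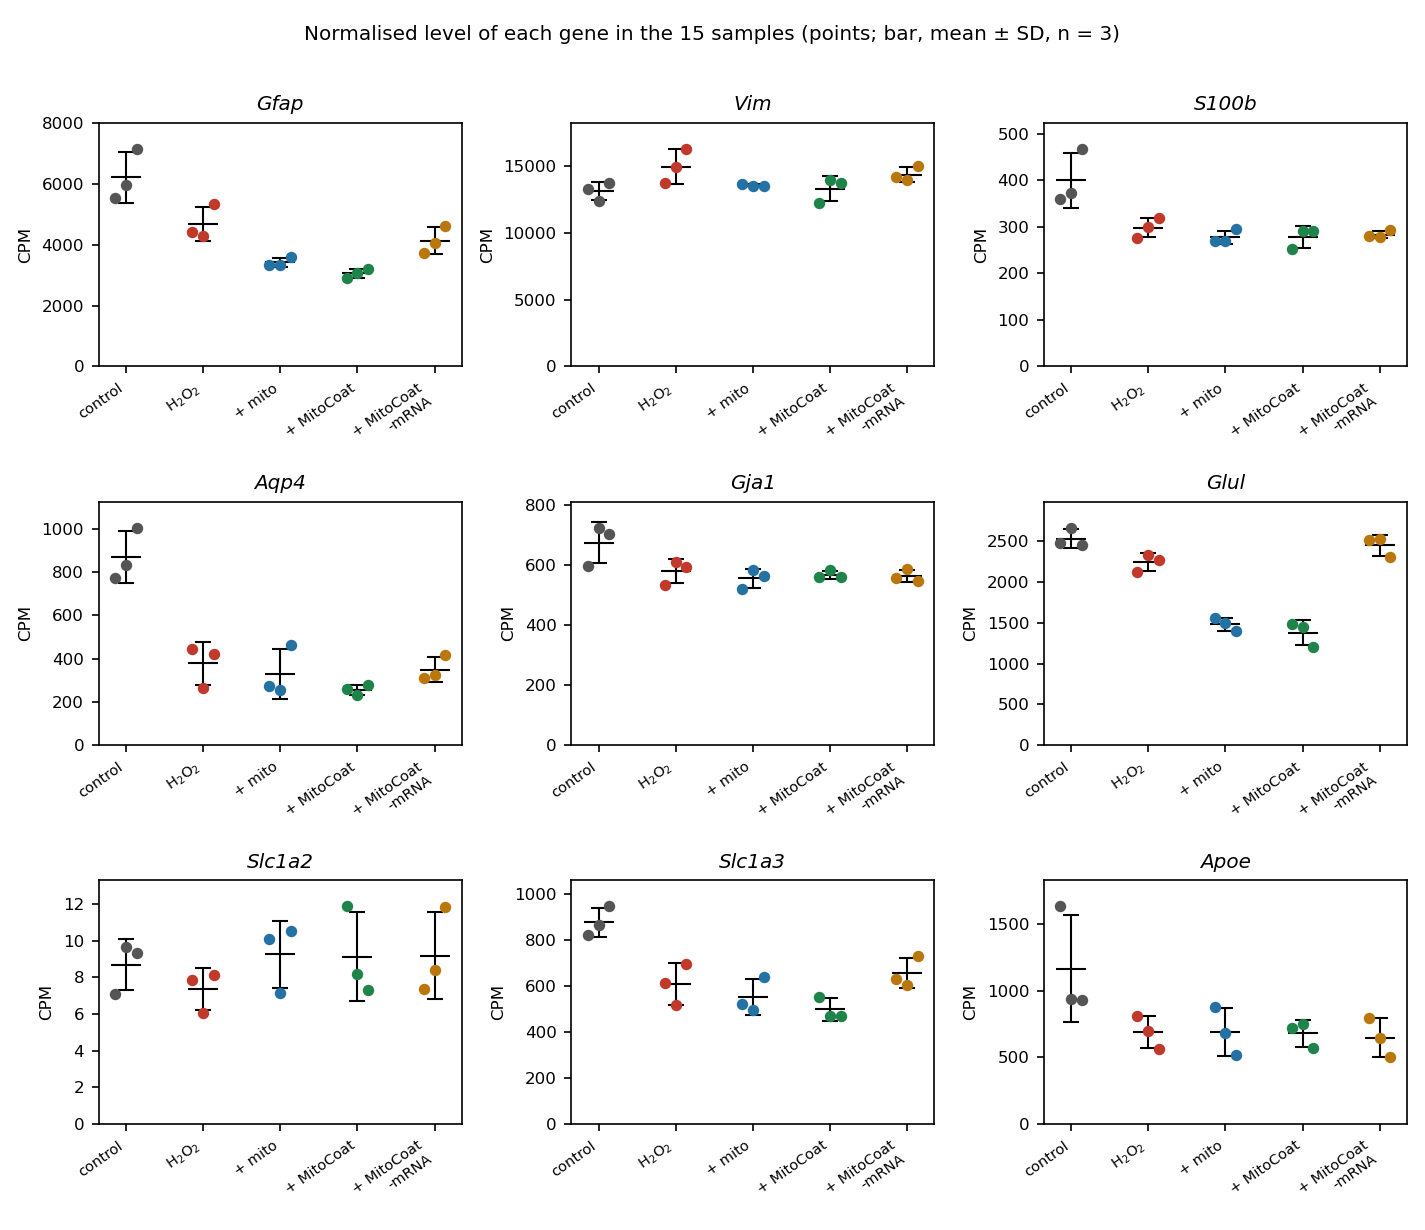
Normalised level of the 9 genes in each of the 15 samples, in CPM on axes from 0; points are samples and bars are mean ± SD (n = 3). For Gfap, S100b, Aqp4, Slc1a3 and Apoe all 12 samples given H2O2 lie below the 3 controls, and for Glul the 6 samples given mitochondria lie below the other 9.

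Exposure to H2O2 was followed by lower Aqp4 and Slc1a3. Against control, 2 of the 9 genes were called lower and 0 higher, where 7.19% of the 15650 genes tested were called and 4.22% were called lower. The median log2 change of the 9 was -0.40 against 0.01 for all genes. With these 6 samples scaled by themselves, the groups did not overlap in 7 of the 9 genes, which held for 28% of all genes tested. Of the 7, 6 were lower after H2O2 and 1, Vim, was higher. In the CPM given here, scaled over all 15 samples, the Vim groups overlapped (13721 in a control sample, 13698 in an H2O2 sample). In bulk samples, fewer cells of a type and less RNA per cell cannot be told apart.

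Aqp4 (ENSRNOG00000016043, chr18:6765945-6782996, minus strand, Rnor 6.0) encodes the main water channel of astrocytes. Its normalised level was 773, 833 and 1006 CPM in the control samples and 446, 266 and 421 in the H2O2 samples. Every H2O2 sample lay below every control sample. The level fell by 56.3% (log2 change -1.19, SE 0.191, edgeR adjusted p = 0.00909), and this call held in all 12 alternative fits, with log2 changes between -1.33 and -1.001. After unmodified mitochondria the samples held 272, 255 and 464 CPM, after MitoCoat 258, 234 and 279, and after MitoCoat-mRNA 309, 324 and 417. No treated sample reached the control range. Against control the log2 change was -1.40 after mitochondria, -1.77 after MitoCoat (edgeR adjusted p = 5.45e-05) and -1.31 after MitoCoat-mRNA, all called. MitoCoat was lower than H2O2 alone by a log2 change of -0.56 (95% interval -0.95 to -0.18) without passing the threshold (edgeR adjusted p = 0.146, and 0.0138 by DESeq2 on the same samples).

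Slc1a3 (ENSRNOG00000016163, chr2:57860834-57935363, minus strand) encodes the glutamate transporter GLAST, the one on which young cultured astrocytes chiefly rely. The control samples held 819, 864 and 945 CPM and the H2O2 samples 611, 517 and 696, again with no overlap. The level fell by 30.1% (log2 change -0.52, SE 0.120, edgeR adjusted p = 0.0376). This call held in 2 of the 6 fits with 1 sample left out and was lost without control replicate 2 (edgeR adjusted p = 0.128), control replicate 3 (0.141), H2O2 replicate 1 (0.0723) or H2O2 replicate 2 (0.0940), where the log2 change lay between -0.53 and -0.42. The treated groups stayed low, at 523, 493 and 640 CPM after mitochondria, 553, 470 and 469 after MitoCoat and 630, 605 and 730 after MitoCoat-mRNA. Against control, the log2 change was -0.67 after mitochondria, -0.83 after MitoCoat and -0.41 after MitoCoat-mRNA, all called. The last was lost when control replicate 2 or 3, or MitoCoat-mRNA replicate 1 or 2, was left out (edgeR adjusted p from 0.0645 to 0.0916). None of the 3 treatments differed from H2O2 alone past the threshold.

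Slc1a2 (ENSRNOG00000005479, chr3:92640752-92665644, plus strand) encodes GLT-1, the transporter that dominates in mature brain. On its truncated gene model it had 7.11, 9.65 and 9.31 CPM in control and 7.87, 6.03 and 8.14 after H2O2. Mitochondria gave 10.1, 7.14 and 10.5, MitoCoat gave 11.9, 8.19 and 7.32, and MitoCoat-mRNA gave 7.35, 8.38 and 11.8. All groups overlapped and no comparison was called; the interval for H2O2 against control ran from -0.65 to 0.19 on the log2 scale. The log2 ratio of Slc1a2 to Slc1a3 per exon length, a quantity that no library scaling changes, was -4.49 ± 0.183 (SD, n = 3) in control and -4.20 ± 0.0826 in H2O2. It was -3.73 ± 0.207 after mitochondria, -3.62 ± 0.233 after MitoCoat and -4.01 ± 0.238 after MitoCoat-mRNA. With 3 samples against 3 the two-sided exact permutation test cannot go below p = 0.1, and 6 of the 10 comparisons of this ratio gave that smallest value (0.167 after Benjamini-Hochberg adjustment over the 10). They were H2O2 and each treatment against control, mitochondria against H2O2 (difference 0.46) and MitoCoat against H2O2 (0.58).

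Glul was lower after both mitochondrial treatments than after H2O2 alone or MitoCoat-mRNA. It encodes glutamine synthetase (ENSRNOG00000049560, chr13:71331052-71340229, plus strand). The control samples held 2485, 2668 and 2452 CPM and the H2O2 samples 2119, 2339 and 2275. These groups did not overlap, but the log2 change of -0.16 (95% interval -0.38 to 0.05) did not pass the threshold (edgeR adjusted p = 0.345). After unmodified mitochondria the samples held 1556, 1501 and 1396 CPM, and after MitoCoat 1486, 1455 and 1203. After MitoCoat-mRNA they held 2520, 2534 and 2307. All 6 samples given mitochondria lay below every one of the other 9.

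Against H2O2 alone, Glul fell by 34.2% after unmodified mitochondria (log2 change -0.60, SE 0.0899, edgeR adjusted p = 0.00496) and fell by 38.8% after MitoCoat (log2 change -0.71, SE 0.112, edgeR adjusted p = 0.00948). The change after MitoCoat-mRNA was 0.13 (95% interval -0.07 to 0.32, edgeR adjusted p = 1.00). The direct comparisons gave a log2 change of -0.72 for mitochondria against MitoCoat-mRNA (SE 0.0790, edgeR adjusted p = 0.000814) and of -0.84 for MitoCoat against MitoCoat-mRNA (SE 0.103, edgeR adjusted p = 0.00240). Unmodified mitochondria and MitoCoat were not separated, the log2 difference being -0.11 (95% interval -0.32 to 0.11). Against control, Glul was lower after mitochondria (-0.77) and MitoCoat (-0.89) and was -0.04 (95% interval -0.23 to 0.15) after MitoCoat-mRNA. Each of the 6 Glul calls held in all 12 of its alternative fits.

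Gfap was lowest in the groups given mitochondria. It encodes the glial fibrillary acidic protein (ENSRNOG00000002919, chr10:90990762-90999506, minus strand), the usual marker of astrocytes. Control samples held 5536, 5980 and 7151 CPM and H2O2 samples 4420, 4292 and 5343, without overlap. The log2 change of -0.40 (95% interval -0.70 to -0.09) did not pass in the edgeR fit of these 6 samples (adjusted p = 0.122) and did in DESeq2 on the same samples (adjusted p = 0.0174). After unmodified mitochondria the samples held 3351, 3333 and 3605 CPM, after MitoCoat 2910, 3060 and 3204, and after MitoCoat-mRNA 3741, 4044 and 4622.

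Compared with H2O2 alone, Gfap fell by 27.1% after unmodified mitochondria (log2 change -0.46, SE 0.0996, edgeR adjusted p = 0.0348) and fell by 35.1% after MitoCoat (log2 change -0.62, SE 0.112, edgeR adjusted p = 0.0166). The first call was lost when any sample but H2O2 replicate 2 was left out (edgeR adjusted p from 0.0658 to 0.196). The second was lost without H2O2 replicate 3 (0.0695), MitoCoat replicate 1 (0.0615) or MitoCoat replicate 2 (0.0919). The change after MitoCoat-mRNA was -0.18 (95% interval -0.44 to 0.07). MitoCoat was lower than MitoCoat-mRNA by a log2 change of -0.45 (edgeR adjusted p = 0.0451), a call that held only without MitoCoat-mRNA replicate 1 among the samples left out and otherwise gave 0.0666 to 0.184. For mitochondria against MitoCoat-mRNA the log2 difference was -0.27 (edgeR adjusted p = 0.167, and 0.0297 with the replicate number as a block). MitoCoat lay below unmodified mitochondria in every sample, with a log2 difference of -0.17 (95% interval -0.35 to 0.004) that was not called; groups failed to overlap in 11.1% of all genes there. Against control, Gfap was called lower after mitochondria (-0.86), MitoCoat (-1.04) and MitoCoat-mRNA (-0.58). The last was lost without MitoCoat-mRNA replicate 1 (edgeR adjusted p = 0.0526) or replicate 2 (0.0713).

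Vim (ENSRNOG00000018087, chr17:80882666-80891212, plus strand), the other filament gene, was called in no comparison. Its samples held 13302, 12391 and 13721 CPM in control, 13698, 14896 and 16262 after H2O2, 13675, 13523 and 13523 after mitochondria, 12216, 13949 and 13755 after MitoCoat and 14133, 13913 and 15012 after MitoCoat-mRNA. Its highest sample was 1.33 times its lowest, the smallest such spread of the 9 genes, and the log2 change for H2O2 against control was 0.20 (95% interval -0.05 to 0.45). The log2 ratio of Gfap to Vim per exon length was -2.06 ± 0.165 (SD, n = 3) in control and -2.66 ± 0.103 in H2O2. It was -2.96 ± 0.0681 after mitochondria, -3.10 ± 0.0613 after MitoCoat and -2.78 ± 0.110 after MitoCoat-mRNA. In 8 of the 10 comparisons of this ratio the groups did not overlap, and each of the 8 reached the smallest two-sided exact permutation p, 0.1 (0.125 after adjustment over the 10). Among them were the differences from control to H2O2 (-0.59), from H2O2 to mitochondria (-0.31), from H2O2 to MitoCoat (-0.44), from mitochondria to MitoCoat (-0.13) and from MitoCoat-mRNA to MitoCoat (-0.32), and those of the 3 treatments from control (-0.90 after mitochondria, -1.03 after MitoCoat and -0.71 after MitoCoat-mRNA). The difference between MitoCoat-mRNA and H2O2 was -0.12 (exact permutation p = 0.3).

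**Figure D3:**
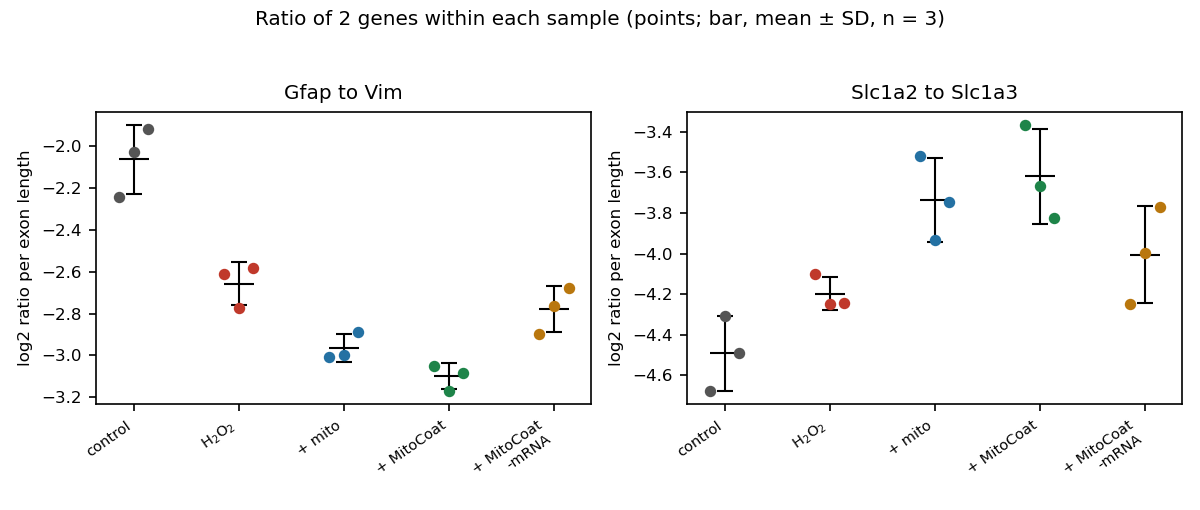
Log2 ratio of Gfap to Vim and of Slc1a2 to Slc1a3 per exon length in each of the 15 samples; points are samples and bars are mean ± SD (n = 3). The Gfap to Vim ratio lies highest in control, near -2.06, and lowest after MitoCoat, near -3.10.

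S100b (ENSRNOG00000001295, chr20:13130636-13142856, minus strand), which encodes a calcium-binding protein abundant in astrocytes, held 360, 372 and 468 CPM in control and 277, 301 and 319 after H2O2. These groups did not overlap, and the log2 change of -0.41 (95% interval -0.68 to -0.14) missed the threshold in the edgeR fit of the 6 samples (adjusted p = 0.0780) and passed by DESeq2 on the same samples (adjusted p = 0.0105). The 9 treated samples lay between 252 and 295 CPM. No treatment differed from H2O2 alone past the threshold. All 3 were called lower than control, with log2 changes of -0.52 after mitochondria, -0.53 after MitoCoat and -0.49 after MitoCoat-mRNA. The last was lost without MitoCoat-mRNA replicate 2 (edgeR adjusted p = 0.0672).

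Gja1 (ENSRNOG00000000805, chr20:37876650-37889089, plus strand) encodes connexin 43, the principal gap junction protein of astrocytes. It held 599, 726 and 704 CPM in control and 535, 612 and 596 after H2O2, and the groups overlapped (log2 change -0.21, 95% interval -0.45 to 0.04). The 9 treated samples lay between 522 and 587 CPM, all below the control samples. None of the differences from control was called in the edgeR fits of 6 samples, with log2 changes of -0.28 after mitochondria (95% interval -0.49 to -0.07, adjusted p = 0.0636) and -0.26 after MitoCoat (95% interval -0.48 to -0.05, adjusted p = 0.0770). All 3 treatments were called against control by DESeq2 on the same samples (adjusted p from 0.0291 to 0.0481), by DESeq2 and by edgeR on all 15 samples, and by edgeR without control replicate 1 (adjusted p from 0.00966 to 0.0202). For MitoCoat-mRNA against control the log2 change of -0.26 (edgeR adjusted p = 0.0865) passed with the replicate number as a block (-0.25, edgeR adjusted p = 0.00282).

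Apoe (ENSRNOG00000018454, chr1:80612895-80617057, minus strand) encodes apolipoprotein E, the lipid carrier that astrocytes secrete, and varied widely within groups. Control replicate 1 held 1631 CPM and stood apart from the other control samples, at 938 and 926. H2O2 samples held 808, 697 and 564, mitochondria samples 877, 678 and 516, MitoCoat samples 721, 751 and 566, and MitoCoat-mRNA samples 791, 647 and 501. All 12 samples exposed to H2O2 lay below the 3 controls. For H2O2 against control the log2 change was -0.74 (SE 0.229, edgeR adjusted p = 0.0956). It passed with no filter (-0.75, edgeR adjusted p = 0.0353), and without control replicate 1 it was -0.43 (edgeR adjusted p = 0.130). Apoe was called lower than control after MitoCoat (-0.79, edgeR adjusted p = 0.0305) and, close to the threshold, after MitoCoat-mRNA (-0.84, edgeR adjusted p = 0.04996). After unmodified mitochondria the log2 change was -0.75 (edgeR adjusted p = 0.0567), not called, and it passed by DESeq2 (adjusted p = 0.0385) and edgeR (0.0307) on all 15 samples and with no filter (0.0134). It also passed without control replicate 3 (edgeR adjusted p = 0.0437) or mitochondria replicate 1 (0.0400), and without control replicate 1 it was -0.43 (edgeR adjusted p = 0.120). Without that sample the MitoCoat and MitoCoat-mRNA values were -0.47 (edgeR adjusted p = 0.0319) and -0.52 (0.0576). The MitoCoat call was lost without any 1 of the MitoCoat samples (0.0504 to 0.0985). The MitoCoat-mRNA call was also lost without control replicate 2 or MitoCoat-mRNA replicate 2 or 3 (0.0647 to 0.138) and by DESeq2 on the 6 samples (0.0702). No treatment was called for Apoe against H2O2 alone, with 95% intervals of the log2 change reaching at most 0.50 in size.

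**Figure D4:**
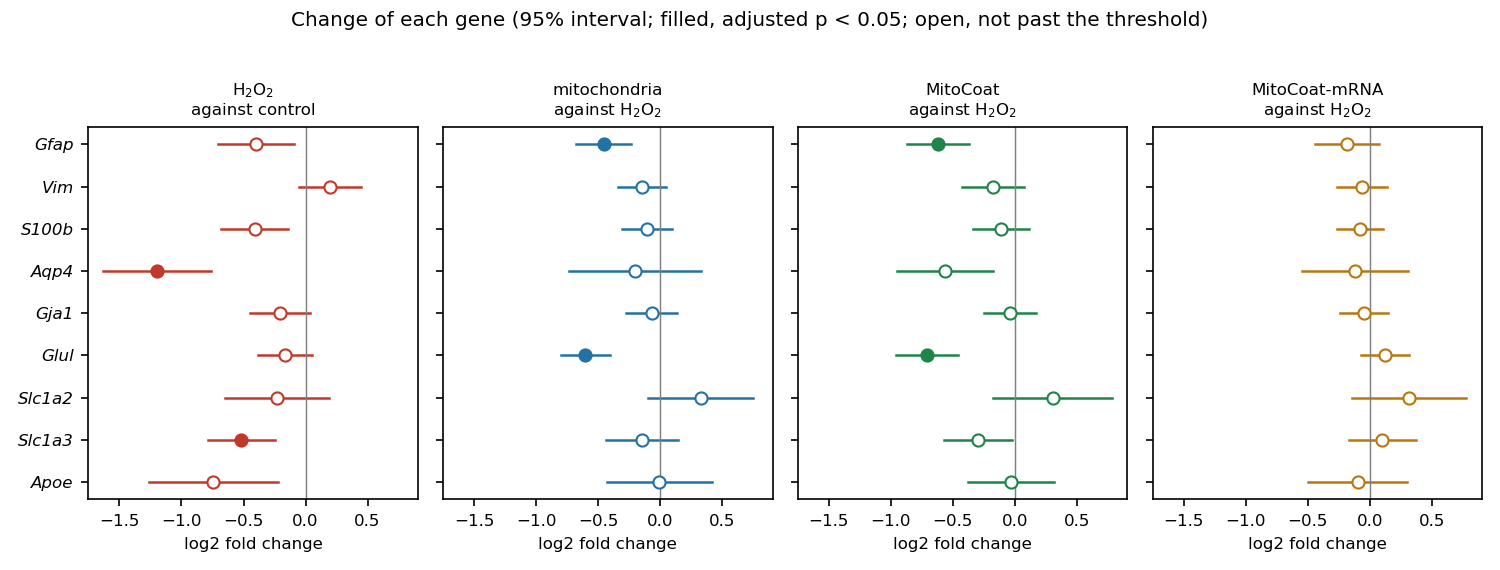
Log2 fold change of each gene for H2O2 against control and for each treatment against H2O2; points are estimates, bars 95% intervals, filled points adjusted p under 0.05. Aqp4 and Slc1a3 are filled in the first panel, Glul and Gfap in both mitochondria panels, and none in the last.

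The counts of called genes for the 3 treatments are set side by side here, and the comparisons share the H2O2 samples. Against H2O2 alone, unmodified mitochondria lowered 2 of 9 (all genes: 3.59% called, 1.73% lower), MitoCoat lowered 2 of 9 (3.05% called, 1.58% lower), and in each case the genes were Glul and Gfap. For MitoCoat-mRNA 0 of 9 were called, with 0% of the 15506 genes tested called; 0 of the 9 genes reached an unadjusted p under 0.05, where 2.99% of all genes did, and DESeq2 called 0. MitoCoat against unmodified mitochondria also gave 0 of 9 (0% of all genes, 4.95% at an unadjusted p under 0.05, where 0 of the 9 genes were); DESeq2 on the 6 samples called 0 of the 9 and 5 of all genes. The median log2 change of the 9 genes against H2O2 was -0.15 after mitochondria, -0.18 after MitoCoat and -0.06 after MitoCoat-mRNA.

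Relative to control, mitochondria lowered 5 of 9 genes (all genes: 22.5% called, 12.2% lower), MitoCoat 6 of 9 (24.1%, 13.1% lower) and MitoCoat-mRNA 5 of 9 (15.9%, 8.72% lower), and 0 were higher in any of the 3. The median log2 change of the 9 was -0.67, -0.79 and -0.41, respectively. The number for MitoCoat-mRNA fell to 3 without control replicate 2 or MitoCoat-mRNA replicate 1 and to 1, Aqp4, without MitoCoat-mRNA replicate 2. Mitochondria against MitoCoat-mRNA lowered 1 of 9 (Glul; all genes 3.56%, 1.41% lower), and with the replicate number as a block 3, adding Gfap and Slc1a3 (log2 -0.25, edgeR adjusted p = 0.0421). MitoCoat against MitoCoat-mRNA lowered 2 of 9 (Glul and Gfap; all genes 2.98%, 1.42% lower). In the latter comparison Aqp4 (-0.46, edgeR adjusted p = 0.0993) and Slc1a3 (-0.41, edgeR adjusted p = 0.0835) lay lower in every MitoCoat sample than in any MitoCoat-mRNA sample, as 19.8% of all genes lay without overlap, and neither passed in the edgeR fit. Both were called by DESeq2 on the same 6 samples (adjusted p = 0.00814 for Aqp4 and 0.00656 for Slc1a3) and by edgeR with no filter (0.0247 and 0.0294), and Slc1a3 also by DESeq2 on all 15 samples (0.0259).

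The summed share of all counts carried by the 9 genes was 2.57% ± 0.109 (SD, n = 3) in control, 2.42% ± 0.161 in H2O2, 2.12% ± 0.0333 after mitochondria, 2.04% ± 0.106 after MitoCoat and 2.31% ± 0.0942 after MitoCoat-mRNA. Most of it came from Vim and Gfap. Markers of other cell types, such as microglia, were not analysed here, and their part in these results was not tested.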

How the data were processed

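PolyA RNA of 15 samples was sequenced. Per the labels and the methods, the authors used Trimmomatic 0.36 for trimming, STAR 2.5.2b for alignment to Rnor 6.0 and featureCounts (Subread 1.5.2) for uniquely mapped reads over exons. The deposited values used here are raw counts per gene, in 1 table for each sample, and a series-level table identical to 1 sample was not used. Total counts of 35315654 to 46778663 left sampling error small for all genes but Slc1a2. Unique mapping leaves out reads shared with a near-identical copy.

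Counts were tested in R 4.3.3 with edgeR 4.0.16 (filterByExpr, TMM, quasi-likelihood), with only the 6 samples compared in each fit, over all genes tested, with calls at a Benjamini-Hochberg adjusted p under 0.05. Standard errors and 95% intervals came from the log2 change and its F statistic. CPM were counts per 1000000 of the TMM-scaled total, with all 15 samples scaled together, also divided by exon length; correlations used a prior count of 2. Exact two-sided permutation was used for ratios. Plots were made in Python 3.11.15 (matplotlib 3.10.9).

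The named genes are all 9 genes of the list, plus at most 2 identifiers most alike in pattern. The genes and lists were chosen with earlier results of these data known. Lists of other astrocyte, glutamate and cell type genes were set by symbol; the tables used here pair no symbol with these identifiers, so they were not analysed here. Symbols of the 9 came with the list.

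Alternatives were DESeq2 1.42.0 on the 6 or all 15 samples, edgeR on all 15, RLE size factors, no filter beyond a total of at least 1 count, the replicate number as a block, and each sample left out. The test over all 5 groups had the DESeq2 likelihood ratio test, RLE, no filter, the block and each sample left out. Replicates with the same number deviated together (every correlation of deviations over 0.1) in mitochondria against H2O2, MitoCoat-mRNA against H2O2 and control, MitoCoat against mitochondria, and mitochondria against MitoCoat-mRNA (lowest 0.109 to 0.219); nothing in the labels ties the numbers to a culture or day, so this pairing comes from the data. The scripts were tested on simulated data, and no 2 replicates were copies of each other.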

Additional observations from a re-analysis of the deposited data

How the results depend on the processing

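Of the 25 changes called among the 9 genes, each under 12 alternatives, 268 of 300 results kept their call, 32 lost it and 0 reversed; 31 of the losses came from leaving out a sample and 1 from DESeq2 on the 6 samples (Apoe, MitoCoat-mRNA against control, adjusted p = 0.0702). Of the 65 changes not called, 39 of 780 results gained a call. For H2O2 against control, 4 of the 9 genes instead of 2 were called by DESeq2 on 6 or on all 15 samples, by edgeR on all 15 and with the replicate block. For mitochondria against MitoCoat-mRNA the replicate block gave 3 instead of 1, and for MitoCoat against MitoCoat-mRNA DESeq2 on the 6 samples and no filter gave 4 instead of 2. The cause was not tested. Leaving out 1 sample gave 1 to 2 called genes for H2O2 against control, mitochondria against H2O2 and MitoCoat against MitoCoat-mRNA, 1 to 3 for MitoCoat against H2O2 and 1 to 5 for MitoCoat-mRNA against control. For the comparisons whose same-numbered samples were not paired, the block also called S100b (0.0461) and Apoe (0.0158) in H2O2 against control, Aqp4 in MitoCoat against H2O2 (0.0281) and Apoe in mitochondria against control (0.000112, edgeR); it changed no other call in the paired ones than those given.

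Counts over all genes also moved. The test over all 5 groups gave 3465, against 4645 (DESeq2 likelihood ratio test) and 4398 (block), and 2469 to 3803 with 1 sample left out. H2O2 against control gave 1125, against 1785 (DESeq2, 6 samples), 2375 (DESeq2, 15) and 1726 (edgeR, 15), and 376 to 1166 with 1 sample left out. Mitochondria against H2O2 gave 560, against 889, 1087 and 1243 (block), and 254 to 444. MitoCoat against H2O2 gave 479, against 907, 1414, 904 (edgeR, 15) and 924 (block), and 201 to 430. MitoCoat-mRNA against control gave 2482, against 5756 (block), and 1249 to 2768. Mitochondria against MitoCoat-mRNA gave 554, against 849, 877 and 1141 (block), and 270 to 620; MitoCoat against MitoCoat-mRNA gave 467, against 828 and 1014, and 163 to 559. With 1 sample left out, mitochondria and MitoCoat against control gave 2137 to 3793 and 2155 to 3911 (3523 and 3792 with all). MitoCoat against mitochondria gave 0, or 5 with DESeq2 on 6 samples or the block; MitoCoat-mRNA against H2O2 gave 0 in all.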

Other observations

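Over the 15 samples, and with group differences included, the closest pair among the 9 genes was Aqp4 and Slc1a3 (Pearson r = 0.94 of log2 CPM, and 0.84 for deviations from the group means). Gfap ran with Slc1a3 (r = 0.90) and Aqp4 (r = 0.89). Apoe ran opposite to Gfap within groups (r = -0.78) while its correlation over all samples was 0.39. These are descriptions over samples that share groups and depth.

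Replicate numbers carried a pattern that was noticed after the values were seen. In all 5 groups, replicate 3 held the highest Gfap and the highest S100b and the lowest Apoe, and replicate 2 held the highest Gja1. Nothing in the labels says what same-numbered samples share.

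For each of the 9 genes, the other gene most alike over the 15 samples, among 16631, was not one of the 9, with r from 0.90 (Vim) to 0.99 (Aqp4). Nearly all of the 16631 genes lie outside the 9, so a best match outside them was likely beforehand and says little about the list. The gene most like Aqp4 was ENSRNOG00000006030 (chr4:49941304-50140762, Rnor 6.0). The gene most like Glul was ENSRNOG00000056343 (chr15:37943609-37983882, r = 0.96), with 4845 to 11841 counts per sample. Its exons cover 4958 bases in 7 separate blocks, and those of Glul cover 2485 bases in 7. The RefSeq annotation (GRCr8) lists 2 Glul pseudogenes, 1 of them on chromosome 15; whether the identifier is that copy was not resolved, and reads that map equally to Glul and a copy are not in these counts.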
